A study of Mus musculus with 12 samples.

Results

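Mouse pre-iPSCs received ascorbic acid (AA) together with 2i, inhibitors of the MEK and GSK kinases, or 2i alone. AA and 2i were given at the same time, so adding AA to 2i names the comparison and not an order of treatment. The 3 libraries with AA+2i were compared with the 3 libraries with 2i. These 6 of the 12 RNA sequencing libraries of the series were chosen by their titles, which name the treatment and a replicate letter, A, B or C. Pre-iPSCs are clonal lines arrested late in reprogramming from mouse embryonic fibroblasts that carried retroviral Oct4, Sox2, c-Myc and Klf4, with a Nanog-GFP reporter that is still silent. All cells were treated for 48 h in serum-containing ESC medium without the feeder layer on which they are otherwise kept. The 2i cells received the MEK inhibitor PD0325901 at 1 µM and the GSK inhibitor CHIR99021 at 3 µM, and the AA+2i cells received the same with AA at 50 µg/ml. The other 6 libraries came from cells with DMSO, the solvent control, or with AA alone, and were used to estimate the spread and to ask whether the response to AA differed when 2i was absent. The replicates are described as biological replicates of a clonal line, so the p-values measure the spread between cultures of that material and not between lines.

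AA is a cofactor of dioxygenases that depend on iron, among them the TET enzymes that oxidise methylated cytosine, the jumonji histone demethylases and the prolyl hydroxylases of collagen and of HIF. 2i blocks the differentiation signal that passes through MEK and ERK and, through GSK inhibition, stabilises β-catenin, and together with LIF it keeps mouse ESCs in the naive state. Comparing AA+2i with 2i gives the response to AA while both inhibitors are present at the same doses. RNA levels do not measure the signalling itself, so whether it was equal in the 2 groups is not known.

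The expected counts of the 6 libraries summed to between 16989529 and 23653287, and those of all 12 to between 16173322 and 54392719. The cell label was checked on marker genes in TPM (read counts divided by transcript length and scaled to a fixed sum within a library). The summed TPM of the pre-iPSC markers Cdh1, Epcam, Fut4 and Alpl ranged from 127.51 to 141.05 with 2i and from 295.14 to 344.44 with AA+2i. Fut4, a fucosyltransferase gene, averaged only 0.06 TPM with 2i and 0.08 TPM with AA+2i. Cdh1, Epcam and Alpl also stand on the list of other pluripotency-associated genes below, so this rise is not particular to the pre-iPSC state. The iPSC and ESC markers Nanog, Zfp42, Esrrb and Dppa3 summed to between 7.16 and 7.92 TPM with 2i and to between 54.38 and 63.56 TPM with AA+2i. The 12 fibroblast markers summed to between 48.02 and 57.67 TPM with 2i and to between 38.84 and 45.68 TPM with AA+2i, and Lum and Twist2 were below 0.05 TPM in all 6 libraries. The sum hides members that moved in opposite ways, as 4 of the 8 tested had a positive and 4 a negative log2 fold change. The 10 neural and astrocyte markers summed to between 57.08 and 75.1 TPM with 2i and to between 53.9 and 65.18 TPM with AA+2i, with Aqp4 below 0.05 TPM throughout. In bulk RNA, more cells that express a gene and more RNA of it per cell cannot be told apart.

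The libraries also differed by the GC content of the transcripts, most strongly in replicate A. For transcripts of 65% GC, the fitted log2 difference between the AA+2i and the 2i library was 1.58 in A, -0.48 in B and 0.38 in C, whereas at 35% GC it was -0.45, 0.23 and -0.20. The genes that rose had a median GC content of 51.2% and those that fell one of 48.2%, against 50.3% of all tested genes. The part of GC content in single results was not tested, but the calls of single genes and the counts of called genes were also computed with a correction for it.

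**Figure D1:**
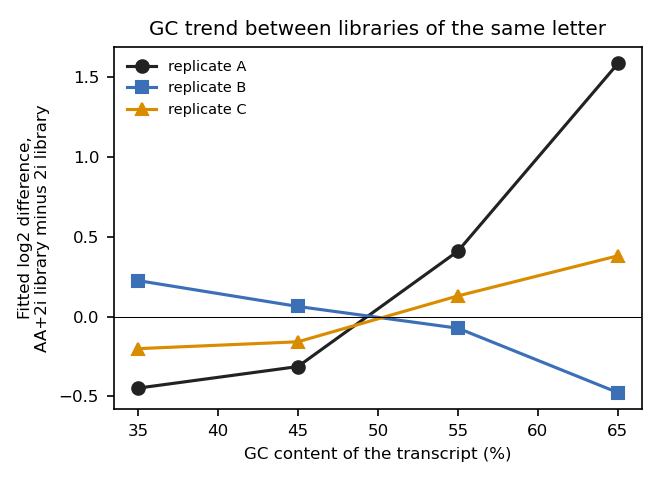
Fitted log2 difference in read count between the AA+2i and the 2i library of each replicate letter (y axis) against the GC content of the transcript in percent (x axis). The line of replicate A climbs to 1.58 at 65% GC, while that of B falls to -0.48 and that of C reaches 0.38.

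Adding AA to 2i raised 400 genes and lowered 206 of the 13400 genes tested with edgeR at an adjusted p below 0.05, with the replicate letter as a block. These are 2.99% and 1.54% of the tested genes, which serve as the background for the counts of named groups. Of the raised genes, 338 rose at least 2-fold and 70 at least 8-fold, and of the lowered genes 130 fell at least 2-fold and 3 at least 8-fold. With 2i, 167 of the 400 raised genes averaged less than 1 TPM. Their median level was 1.43 TPM with 2i and 5.13 TPM with AA+2i, and that of the lowered genes was 4.69 and 2.09 TPM. The TPM of the AA+2i libraries did not overlap those of the 2i libraries for 375 of the 400 raised and 167 of the 206 lowered genes, against 9.72% of all tested genes that lay wholly higher and 6.35% wholly lower.

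The number of genes called depended on the model more than the direction did. Without the replicate block 102 genes rose (0.761% of the tested genes) and 20 fell (0.149%), all of them among the 400 and the 206. With GC content corrected and the block kept, 877 rose (6.6%) and 650 fell (4.89%), and these included 389 of the 400 and 199 of the 206. This second model is called the GC-corrected fit. Leaving out replicate A gave 117 raised and 19 lowered genes, leaving out B gave 98 and 37, and leaving out C gave 0 and 0, with 959 genes at an unadjusted p below 0.05 in edgeR. Without C, 383 of the 400 and 203 of the 206 genes were tested and differed in the same direction. Genes that fell below the count filter without C are not in these numbers. Within each letter, all 400 and all 206 genes moved in the direction of their call. The remaining letters are part of the data that picked these genes, so this agreement is not an independent check.

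Genes of the pluripotency network were among the largest rises. Of 19 pluripotency transcription factors, 5 rose and none fell, and of 18 tested members of a list of other pluripotency-associated genes, 10 rose and none fell. The median log2 fold change was 0.95 for the factors and 1.33 for the other genes, against 0.016 for all tested genes. These lists and those below were chosen with earlier results of these data known. The paper already names Nanog, Dppa2, Dppa3, Dppa4, Dppa5a, Gdf3, Ooep and Apobec1 as raised in them. The counts and medians of the lists are therefore descriptions and not independent tests.

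Nanog, the homeodomain factor whose locus carries the reporter, measured 6.92, 6.37 and 4.96 TPM in the 2i libraries A, B and C and 37.08, 40.92 and 31.73 TPM with AA+2i. The 2 groups did not overlap, and the log2 fold change was 2.60 ± 0.33 (SE; edgeR adjusted p = 0.00358). Esrrb, an orphan nuclear receptor of the naive network, measured 0.18, 0.17 and 0.29 TPM with 2i and 2.33, 2.53 and 2.73 TPM with AA+2i, a log2 fold change of 3.63 ± 0.34 (edgeR adjusted p = 0.00087). Zfp42, known as the ESC marker Rex1, measured 0.7, 1.16 and 1.38 TPM with 2i and 5.79, 7.34 and 7.01 TPM with AA+2i, and its log2 fold change was 2.68 ± 0.21 (edgeR adjusted p = 0.000343). All 3 genes were higher in every AA+2i library than in any 2i library, and each passed the test without the block and with the GC correction.

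Klf2 and Tbx3, factors that support self-renewal, rose by a log2 fold change of 1.59 ± 0.27 and 1.84 ± 0.28, but their levels differed between replicates by as much as between treatments. Klf2 measured 10.69, 14.58 and 31.8 TPM with 2i and 41.54, 32.49 and 95.4 TPM with AA+2i. Tbx3 measured 0.58, 0.33 and 1.58 TPM with 2i and 1.79, 1.51 and 4.95 TPM with AA+2i, so that replicate C with 2i lay above replicate B with AA+2i. Without the block the adjusted p of edgeR was 0.294 for Klf2 and 0.428 for Tbx3, and in the GC-corrected fit Klf2 had an adjusted p of 0.1.

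Pou5f1, which encodes Oct4, measured 2946, 3669 and 3222 TPM with 2i and 3311, 2985 and 3026 TPM with AA+2i, with a log2 fold change of -0.0010 ± 0.38. Sox2 and Klf4 had log2 fold changes of 1.10 ± 0.88 and 0.95 ± 0.69 and edgeR adjusted p-values of 0.586 and 0.551. Reads of the coding sequence of these genes can come from the retroviral copies as well as from the endogenous genes, and the deposited values do not separate them. Tcfcp2l1, Nr5a2, Prdm14 and Utf1 did not pass, although they did in the GC-corrected fit, and Utf1 had 0, 0 and 2 counts with 2i and 14, 2 and 58 with AA+2i.

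Genes that act beside these factors rose further. Dppa5a, a small RNA-binding protein of ESCs, measured 26.17, 19.08 and 25.04 TPM with 2i and 511.37, 763.04 and 746.73 TPM with AA+2i, the highest level reached by any gene of the list. It rose 29.3-fold, with a log2 fold change of 4.88 ± 0.28 (edgeR adjusted p = 0.000103). Dppa3, also called Stella, a protein of the germ line and early embryo, had 1, 2 and 4 counts in the 2i libraries and 73, 125 and 204 in the AA+2i libraries, and its fitted log2 fold change was 5.68 ± 0.37 (edgeR adjusted p = 0.000142). The size of such a change rests on a handful of counts in the lower group, whereas its direction was the same in all 3 letters.

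Gdf3, a ligand of the TGF-β family, measured 3.19, 3.2 and 3.52 TPM with 2i and 38.33, 40.43 and 44.56 TPM with AA+2i, a log2 fold change of 3.65 ± 0.22 (edgeR adjusted p = 0.000111). Tdgf1, the Nodal co-receptor Cripto, rose from 28.1 ± 4.59 to 126.6 ± 15.5 TPM (mean ± SD, n = 3). Dppa2 and Dppa4, paired chromatin proteins with a SAP domain, rose from means of 0.193 and 0.173 TPM to means of 4.23 and 1.86 TPM. Ooep, an oocyte protein, rose 4.34-fold and Slc2a3, a glucose transporter that also carries oxidised ascorbate, rose 2.51-fold. All of these passed without the block except Slc2a3, whose adjusted p was then 0.0839 in edgeR, and Cdh1 and Epcam, members of the same list, are described with the epithelial genes. Lin28a, an RNA-binding protein that blocks the maturation of let-7, measured 1.4, 1.23 and 1.93 TPM with 2i and 0.59, 0.48 and 0.83 TPM with AA+2i, and the difference missed the threshold (edgeR adjusted p = 0.069) but passed in the GC-corrected fit (adjusted p = 0.0297).

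**Figure D2:**
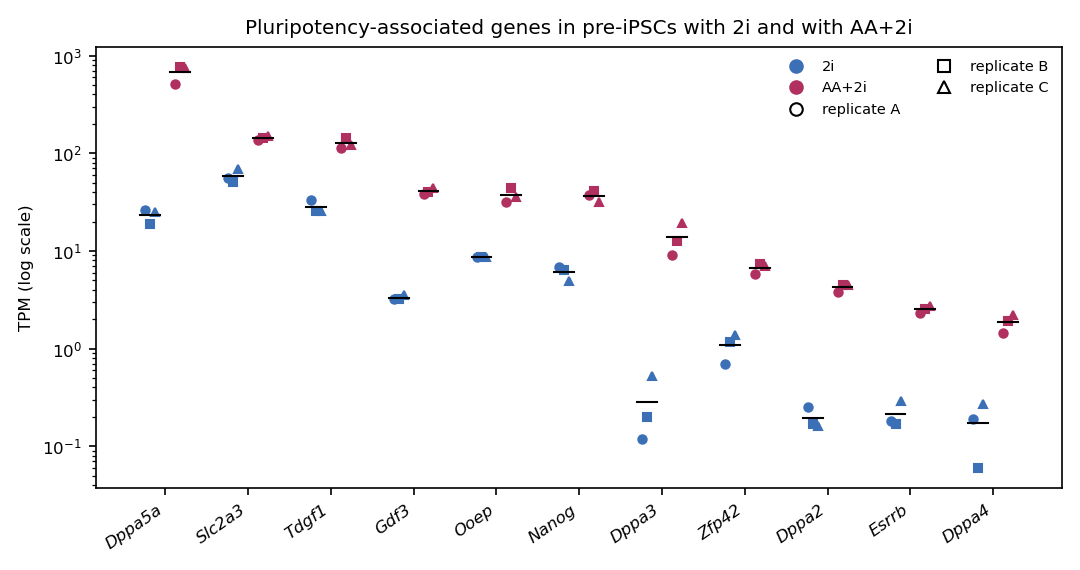
TPM on a log scale (y axis) of 11 pluripotency-associated genes (x axis) in the 3 libraries with 2i (blue) and the 3 with AA+2i (red), where the marker shape is the replicate letter and the black line is the mean. For every gene shown the AA+2i libraries lie above all 2i libraries, from Dppa5a at means of 23.4 and 674 TPM to Dppa4 at means of 0.173 and 1.86 TPM.

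The 250 bases before the start of 4 of these genes are shown, because they moved together and differ in how many CpG dinucleotides, the sites of DNA methylation, they hold. The sequences are those of RefSeq on the strand of the gene, 5′ to 3′, with each CG in capitals. The build is GRCm38.p6, and the windows are chr6:122707239-122707488 (plus strand) for Nanog, chr8:43307010-43307259 (minus strand) for Zfp42, chr9:110946159-110946408 (minus strand) for Tdgf1 and chr9:78378589-78378838 (minus strand) for Ooep.
Nanog: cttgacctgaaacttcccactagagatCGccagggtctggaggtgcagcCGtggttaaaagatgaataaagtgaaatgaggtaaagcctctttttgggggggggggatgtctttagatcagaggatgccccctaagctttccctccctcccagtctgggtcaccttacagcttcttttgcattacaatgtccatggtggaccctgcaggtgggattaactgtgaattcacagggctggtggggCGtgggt
Zfp42: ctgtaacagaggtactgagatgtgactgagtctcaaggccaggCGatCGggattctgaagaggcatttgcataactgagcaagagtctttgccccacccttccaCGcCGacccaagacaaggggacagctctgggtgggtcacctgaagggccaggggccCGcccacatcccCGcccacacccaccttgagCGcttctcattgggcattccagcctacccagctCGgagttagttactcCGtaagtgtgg
Tdgf1: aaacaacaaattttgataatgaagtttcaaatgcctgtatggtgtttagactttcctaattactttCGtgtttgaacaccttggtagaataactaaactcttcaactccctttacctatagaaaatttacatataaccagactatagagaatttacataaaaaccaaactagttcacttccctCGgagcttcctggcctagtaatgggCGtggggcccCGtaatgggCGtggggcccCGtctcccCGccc
Ooep: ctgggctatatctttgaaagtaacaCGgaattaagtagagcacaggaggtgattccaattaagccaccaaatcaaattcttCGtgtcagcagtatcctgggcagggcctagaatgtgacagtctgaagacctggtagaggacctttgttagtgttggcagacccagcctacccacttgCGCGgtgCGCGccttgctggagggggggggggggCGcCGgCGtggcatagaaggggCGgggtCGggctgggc
Nanog held 3 CG in this window, Tdgf1 held 7, Zfp42 held 9 and Ooep held 11. The median over the 10693 tested genes with a sequence was 16, and 9.31% of them held no more than Nanog. The exact octamer ATGCAAAT, searched on both strands, was found in the window of Zfp42 and not in the other 3, and 1.39% of the windows held it. Variants of the octamer were not searched, so a window without the exact string may still hold a related site. A sequence was at hand for 290 of the 400 raised genes, under 80%, so a comparison of all raised genes with the rest was void.

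The raised genes often lay next to each other. Of the 399 raised genes with a position in the mm9 annotation, 90 (22.6%) had a raised gene as the next tested gene on either side, whereas 5.82% of all 13344 placed genes had a raised neighbour. For the lowered genes the shares were 5.37% and 3.04%. Many of these neighbours are members of the same gene family, and RSEM divides reads that near copies share. Examples are Alox12, Alox12e and Alox15, Serpina3k and Serpina3m, Rhox6 and Rhox9, and Sprr2a1 and Sprr2a2. Akr1c18 and Akr1c13, Gstm6 and Gstm3, Clec4a1 and Clec4a3, Triml1 and Triml2, and Dppa4 and Dppa2 are further such pairs. Other neighbours, such as Nanog and Slc2a3, are not of the same family, and the share of related pairs was not computed.

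The longest such run on chromosome 6 held Gdf3 (chr6:122555421-122560105), Dppa3 (chr6:122576428-122580290), Nanog (chr6:122657507-122664651) and Slc2a3 (chr6:122677827-122751658), in mm9 coordinates of the whole gene. Apobec1, a cytidine deaminase at chr6:122527810-122552462, averaged 64.3 TPM with 2i and 104.1 TPM with AA+2i, and its log2 fold change of 0.71 missed the threshold (edgeR adjusted p = 0.0987). On chromosome 9, Dppa5a (chr9:78214859-78215984) lay beside Ooep (chr9:78223916-78226532). On chromosome 16, Dppa4 (chr16:48283848-48294405) and Dppa2 (chr16:48310590-48319836) were followed by Morc1, a germline ATPase, with a log2 fold change of 3.08. Triml1, Triml2 and Zfp42 were neighbours on chromosome 8, where Triml1 had 0 counts in each 2i library and 7, 17 and 21 in the AA+2i libraries.

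Of 51 germline and meiosis genes in the files only 13 were expressed well enough to be tested, and 4 of these rose and none fell. Tex19.1, which protects germ cells from retrotransposons, measured 0.39, 0.33 and 0.48 TPM with 2i and 4.56, 6.54 and 4.8 TPM with AA+2i (log2 fold change 3.77 ± 0.37, edgeR adjusted p = 0.00118). Rhox6 and Rhox9, homeobox genes of the X chromosome, rose from means of 1.33 and 2.49 TPM to means of 37.4 and 36.6 TPM. Piwil2, which binds piRNAs, measured 0.16, 0.18 and 0.21 TPM with 2i and 0.79, 0.92 and 0.59 TPM with AA+2i, which is 4.23-fold higher but still low. All 4 passed without the block and in the GC-corrected fit.

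Epithelial genes rose and a few mesenchymal genes fell. Of 21 tested epithelial genes, 10 rose and none fell, with a median log2 fold change of 1.36. Cdh1, which encodes E-cadherin, measured 56.65, 46.29 and 57.19 TPM with 2i and 142.6, 125.18 and 99.77 TPM with AA+2i (log2 fold change 1.22 ± 0.17, edgeR adjusted p = 0.00508). Epcam, an adhesion molecule of epithelia and ESCs, rose from 64.6 ± 4.72 to 162.6 ± 9.45 TPM (mean ± SD, n = 3). Neither gene overlapped between the groups.

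The tight junction genes Cldn4 and Cldn7 rose 8.45-fold and 9.57-fold, and Cldn4 reached 89.89, 72.21 and 172.35 TPM from 8.19, 11.75 and 25.59 TPM. The paired keratins Krt8 and Krt18 rose 4.25-fold and 10.9-fold, most of all in replicate C, where Krt18 went from 1.64 to 20.03 TPM. Rab25, a small GTPase of epithelial recycling, had 1, 3 and 2 counts in the 2i libraries and 38, 39 and 62 in the AA+2i libraries. The splicing factor Esrp1 rose 1.88-fold, and the desmosome genes Dsp and Dsg2 rose 1.57-fold and 2.73-fold. Without the block 4 of the 10 genes passed, namely Cdh1, Epcam, Rab25 and Dsg2, and the adjusted p-values of edgeR for the other 6 ranged from 0.0748 for Esrp1 to 0.404 for Krt8.

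Of 19 tested mesenchymal genes 3 fell and none rose, with a median log2 fold change of -0.30. Cdh2, which encodes N-cadherin, measured 50.16, 37.26 and 28.28 TPM with 2i and 21.82, 19.61 and 10.15 TPM with AA+2i, without overlap (log2 fold change -1.18 ± 0.16, edgeR adjusted p = 0.00431). Zeb2, a repressor of E-cadherin, measured 7.06, 4.09 and 3.02 TPM with 2i and 3.12, 2.42 and 1.15 TPM with AA+2i. Thbs1, a matrix glycoprotein, fell from 11.9 ± 2.92 to 5.0 ± 0.526 TPM (mean ± SD, n = 3). None of the 3 passed without the block, where the adjusted p-values of edgeR were 0.0885, 0.431 and 0.196. No fibroblast marker out of 8 tested passed, and of 6 tested neural and astrocyte markers Aldh1l1 alone rose, from a mean of 0.263 to 1.15 TPM (edgeR adjusted p = 0.0497, and 0.12 without the block).

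Some genes of a list of the primed epiblast and primitive streak rose beside the naive genes. Of the 21 listed genes 9 did not reach the count filter, among them the streak genes T and Mixl1. Of the 12 tested, 5 rose and none fell, and the median fitted log2 fold change was 1.90. The log2 differences of normalized counts within a letter, which are damped at low counts, had lower medians of 1.24 in A, 0.60 in B and 1.06 in C. Eomes, Wnt3 and Zic2 had log2 fold changes of -0.14, 0.12 and 0.21 and did not pass. Pou3f1, Dnmt3b, Nodal and Fgf5, with log2 fold changes of 0.61, 0.65, 0.96 and 3.75, did not pass either. Otx2, a factor of the epiblast on its way out of the naive state, measured 1.07, 1.26 and 1.98 TPM with 2i and 12.45, 14.59 and 15.14 TPM with AA+2i, a log2 fold change of 3.35 ± 0.21 (edgeR adjusted p = 0.000111). Foxd3, a forkhead repressor of the epiblast, and Evx1, a homeobox gene of the streak, rose from means of 0.113 and 0.253 TPM to means of 1.63 and 1.65 TPM. The Nodal inhibitors Lefty1 and Lefty2 rose from means of 0.25 and 0.147 TPM to means of 2.31 and 1.00 TPM. Evx1 and Lefty1 lost their call without the block, with edgeR adjusted p-values of 0.184 and 0.116.

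Among 22 tested Wnt target and feedback genes, 3 rose and 2 fell. Sp5, a direct β-catenin target, measured 1.2, 1.57 and 6.93 TPM with 2i and 5.71, 4.63 and 24.67 TPM with AA+2i. Dkk1, a secreted Wnt inhibitor, had 1, 3 and 6 counts with 2i and 15, 22 and 218 with AA+2i, so that most of its reads came from replicate C. Bambi, a pseudoreceptor of BMP signalling, rose 1.66-fold. Ccnd2, which encodes cyclin D2, measured 202.22, 123.6 and 118.51 TPM with 2i and 105.29, 86.12 and 58.85 TPM with AA+2i, and the homeobox gene Nkx1-2 fell from a mean of 3.47 to 0.973 TPM. Axin2 and Lef1, both common readouts of the pathway, had log2 fold changes of 0.44 ± 0.27 and -0.39 ± 0.27 and did not pass, and none of the 22 genes passed without the block.

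Of 25 tested ERK feedback and immediate early genes 1 fell and none rose. Dusp4, a phosphatase of ERK, measured 8.69, 8.53 and 10.71 TPM with 2i and 3.78, 3.02 and 3.26 TPM with AA+2i (log2 fold change -1.45 ± 0.18, edgeR adjusted p = 0.00308), and it passed without the block. The ERK inhibitors Spry2 and Spry4 had log2 fold changes of 0.19 ± 0.13 and 0.14 ± 0.12. Egr1, an immediate early factor, measured 0.22, 2.72 and 2.32 TPM with 2i and 0.35, 12.55 and 54.76 TPM with AA+2i, and the spread between letters left its log2 fold change of 3.40 at an SE of 1.25 (edgeR adjusted p = 0.189).

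Some glutathione transferases rose. Of 23 tested, 5 rose and none fell, with a median log2 fold change of 0.19. Gsta1 measured 15, 14.48 and 13.75 TPM with 2i and 50.71, 62.99 and 46.74 TPM with AA+2i (log2 fold change 1.91 ± 0.23, edgeR adjusted p = 0.00263). Gstp2 measured 28.82, 35.82 and 64.21 TPM with 2i and 286.75, 173.85 and 303.07 TPM with AA+2i. Gstk1, Gstm6 and Gstm3 rose from means of 3.27, 3.10 and 0.173 TPM to means of 11.3, 7.28 and 1.18 TPM. Members of this family resemble each other in sequence, and Gstp2 and the Gstm genes in particular may share reads with their neighbours. Gsta1 and Gstk1 passed without the block, and the adjusted p-values of edgeR for Gstp2, Gstm6 and Gstm3 were then 0.053, 0.125 and 0.128.

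Of 33 tested NRF2 targets and redox enzymes 2 rose and none fell. They were the glutathione peroxidases Gpx2, from a mean of 0.593 to 6.38 TPM, and Gpx7, from a mean of 5.16 to 11.1 TPM, and Gpx7 did not pass without the block (edgeR adjusted p = 0.146).

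The enzymes that use AA as a cofactor did not pass the test at the RNA level. None of 14 TET and demethylation repair genes and none of 23 jumonji demethylases passed in either direction, nor did any of 11 H3K9 methyltransferase and HP1 genes or 5 DNA methyltransferase genes, and their list medians lay between -0.13 and 0.11 on the log2 scale. Tet1 measured 16.81, 10.55 and 5.3 TPM with 2i and 17.14, 16.04 and 6.44 TPM with AA+2i, a log2 fold change of 0.33 ± 0.17 (edgeR adjusted p = 0.376). Tet2 had a log2 fold change of 0.36 ± 0.13, and both genes passed in the GC-corrected fit at adjusted p-values of 0.0268 and 0.0415. The demethylase genes Kdm2b, Jhdm1d and Phf2 fell in the same fit, with log2 fold changes of -0.35, -0.49 and -0.42. Dnmt3b, a de novo DNA methyltransferase, averaged 8.23 TPM with 2i and 12.5 TPM with AA+2i without passing, and Dnmt3l, its cofactor, had 0 counts in each 2i library and 2, 6 and 8 in the AA+2i libraries and was not tested.

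The same held for most genes around collagen and HIF. Of 15 tested collagen hydroxylases and ascorbate transporters, Slc2a3 alone rose, and Slc23a2, the sodium-dependent ascorbate transporter, measured 12.28, 10.92 and 11.33 TPM with 2i and 10.22, 12.08 and 8.62 TPM with AA+2i. None of 23 collagen genes passed, although 5 fell in the GC-corrected fit. Of 34 HIF prolyl hydroxylase and hypoxia genes, Epas1, which encodes HIF-2α, rose 1.71-fold, and it did not pass without the block (edgeR adjusted p = 0.415).

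Smaller numbers changed in the other lists. Of 27 growth factor receptor and IGF axis genes, Igf2 rose, and the EGF receptor ligand Hbegf and the cytokine Tgfb2 fell 2.76-fold and 3.06-fold, and none of them passed without the block. Of 27 imprinted genes, Igf2 rose and Plagl1, a zinc finger factor, fell from 13.1 ± 3.15 to 4.22 ± 1.05 TPM (mean ± SD, n = 3; edgeR adjusted p = 0.00511, and 0.0772 without the block). Of 25 interferon-stimulated genes, Irf1, Oas1a, Oasl2 and Psmb8 rose and none fell, with Irf1 at 32.86, 33.93 and 43.77 TPM with 2i and 60.48, 70.04 and 69.32 TPM with AA+2i. None of these 4 passed without the block, where the adjusted p-values of edgeR ranged from 0.0648 to 0.485. Of 17 BMP genes, Msx2 rose 1.89-fold and did not pass without the block (edgeR adjusted p = 0.947). No gene passed among 30 DNA replication and mitosis genes, 11 genes of the polycomb repressive complex 2 and 9 primitive endoderm genes. Of the 30 replication and mitosis genes, 27 had a negative log2 fold change, with a median of -0.21, against 6457 of all 13400 tested genes. None of the 30 passed in the GC-corrected fit or without the block either, and a shift of the list as a whole was not tested.

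**Figure D3:**
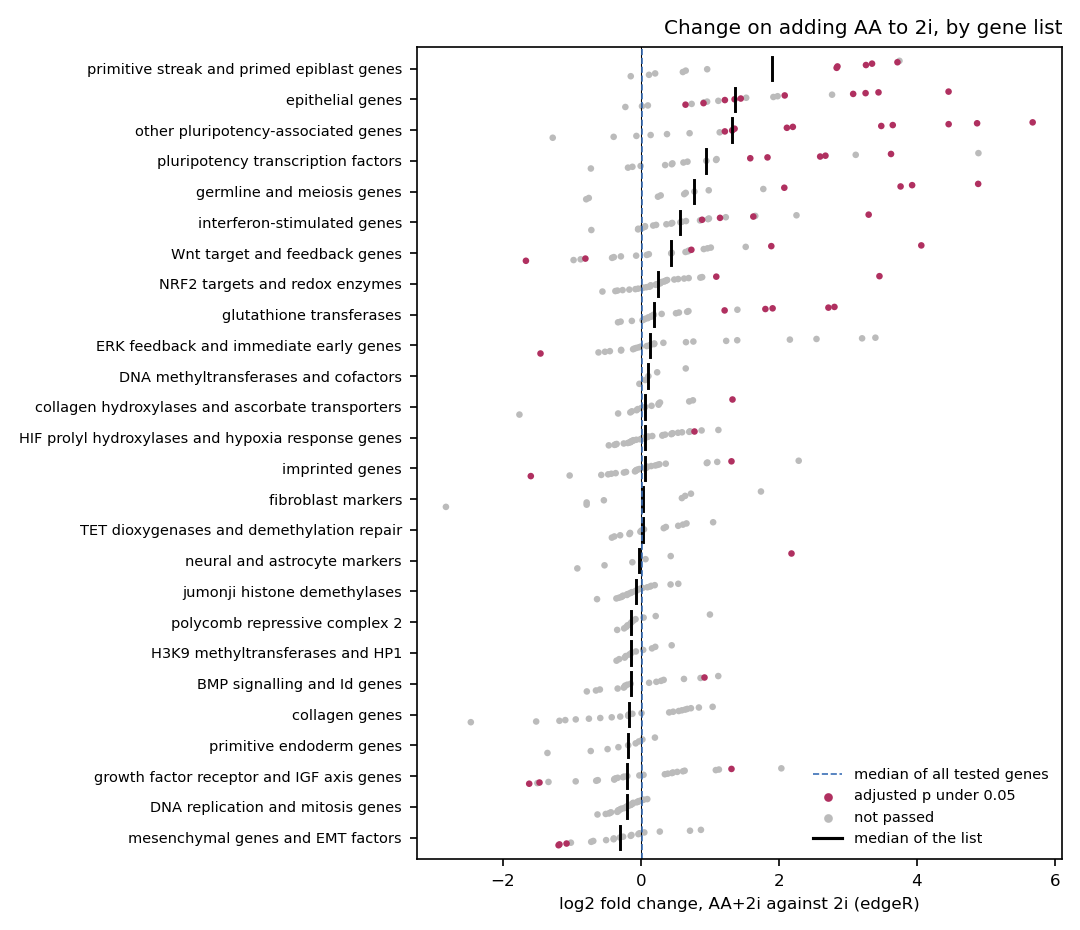
Log2 fold change between AA+2i and 2i (x axis) of each tested gene of the 26 lists (y axis, ordered by median), with genes at an edgeR adjusted p below 0.05 in red, the others in grey, the list median as a black bar and the median of all tested genes as a dashed line. Red points to the right gather in the primed epiblast, epithelial and pluripotency lists, whose medians run from 0.95 to 1.90, while the medians of the enzyme lists lie near 0.

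The 12 largest rises among genes that averaged 1 TPM or more with AA+2i and had 30 counts in each AA+2i library included Dppa3, Dppa5a, Dppa2, Rhox6 and Rab25. The largest was that of Serpina3m, a serine protease inhibitor, with 4, 3 and 1 counts with 2i and 189, 285 and 237 with AA+2i, and other Serpina3 genes may share its reads. Mep1b, a metalloprotease subunit, had 2, 0 and 2 counts with 2i and 67, 131 and 141 with AA+2i. Mdk, the heparin-binding growth factor midkine, measured 2.67, 5.85 and 10.88 TPM with 2i and 152.9, 79.26 and 284.72 TPM with AA+2i, a log2 fold change of 5.04 ± 0.80 (edgeR adjusted p = 0.00948). Alox15, a lipoxygenase, measured 0.96, 0.7 and 0.77 TPM with 2i and 12.86, 12.17 and 15.69 TPM with AA+2i. Dmrtc1b, 1700061G19Rik and AI118078 rose 19.9-fold, 18.5-fold and 18.5-fold. Of the 12, Mdk and AI118078 did not pass without the block, with edgeR adjusted p-values of 0.0772 and 0.0707, and all 12 passed in the GC-corrected fit.

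The 12 largest falls among genes that averaged 1 TPM or more with 2i and had 30 counts in each 2i library ranged from 3.26-fold for Msrb3 to 4.74-fold for Tmem163. Prss23, a secreted serine protease, measured 8.41, 7.77 and 9.23 TPM with 2i and 2.06, 1.95 and 1.75 TPM with AA+2i, a log2 fold change of -2.11 ± 0.17 (edgeR adjusted p = 0.000467). Sall3, a zinc finger factor, measured 3.37, 3.56 and 4.68 TPM with 2i and 1.16, 0.61 and 0.69 TPM with AA+2i. Ets1, a transcription factor downstream of RAS and ERK signalling, measured 3.22, 2.76 and 4.11 TPM with 2i and 0.77, 0.86 and 0.8 TPM with AA+2i.

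Msrb3, a methionine sulfoxide reductase, fell from 6.41 ± 1.09 to 1.93 ± 0.312 TPM, and Pla2g7, a phospholipase of platelet-activating factor, fell from 19.7 ± 6.32 to 5.58 ± 0.642 TPM (mean ± SD, n = 3). Gabra2, a subunit of the GABA receptor, fell 3.51-fold, 1110032A04Rik fell 3.84-fold, and the chemokine Ccl2 fell 3.47-fold. Nedd9, a scaffold of adhesion signalling, Cadm1, an adhesion molecule, and Frmd3 fell 4.19-fold, 4.14-fold and 3.92-fold. Of the 12, 7 passed without the block, and Tmem163, Nedd9, Cadm1, Frmd3 and Ccl2 did not, with adjusted p-values of edgeR between 0.0614 and 0.289.

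The response to AA with 2i was set beside the response to AA without 2i, measured between the AA and DMSO libraries. The 2 comparisons share no library, but they share the estimated spread of each gene and the block terms. Their calls are therefore not independent. In the same fit AA alone raised 315 genes (2.35% of those tested) and lowered 279 (2.08%). Raised in both were 182 genes, 45.5% of those raised with 2i and 57.8% of those raised without, and lowered in both were 100 genes, 48.5% and 35.8%. Of the 400 genes raised with 2i, 367 also had a positive change without 2i, against 48.5% of all tested genes, and 3 were lowered. Of the 206 lowered with 2i, 203 had a negative change without 2i, against 51.5% of all tested genes, and 1 was raised. Across all 13400 genes Pearson's r between the 2 sets of log2 fold changes was 0.63, as a description over genes, which are not independent replicates and share the trend with GC content.

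**Figure D4:**
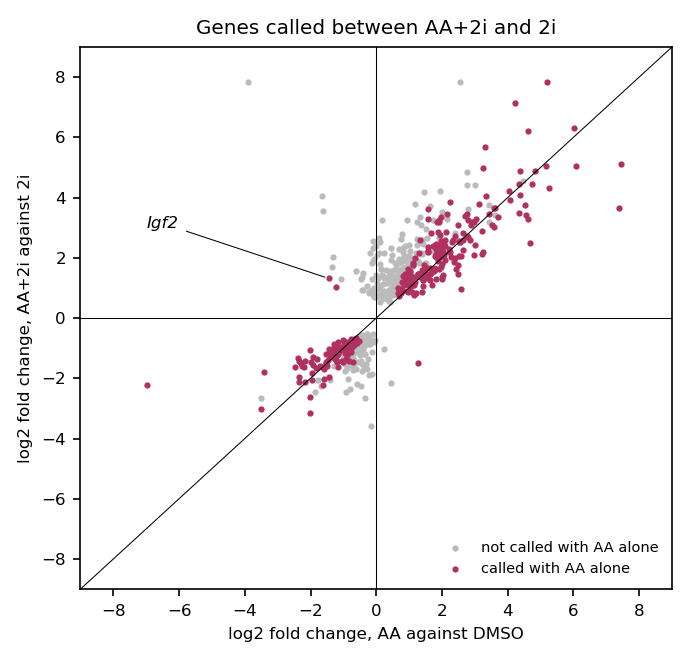
Log2 fold change of the called genes with AA in the presence of 2i (y axis, AA+2i against 2i) against that without 2i (x axis, AA against DMSO), in red where the gene was also called without 2i and in grey where it was not, with the line of equal change. Most points lie in the lower left and upper right, and Igf2 is marked among the few raised with 2i and lowered without it.

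Similar fold changes were reached at different levels. Without 2i, Dppa5a went from 53.2 ± 22.7 to 1438 ± 217 TPM on adding AA, and its log2 fold change of 4.83 was close to the 4.88 seen with 2i. Otx2 rose from 5.57 ± 2.55 to 68.7 ± 20.1 TPM, Gsta1 from 54.4 ± 14.3 to 228.3 ± 50.8 TPM and Piwil2 from 1.48 ± 0.39 to 11.2 ± 2.42 TPM without 2i (mean ± SD, n = 3), and each was lower with AA+2i than with AA. For Dppa3 and Esrrb the larger log2 fold change was the one with 2i, 5.68 against 3.30 for Dppa3 and 3.63 against 1.58 for Esrrb. The differences of 2.38 and 2.05 on the log2 scale did not pass the test of the interaction, with edgeR adjusted p-values of 0.967 and 0.43. Cldn4 reached 4.61, 19.36 and 35.77 TPM with AA alone, and its interaction of 1.71 did not pass either (edgeR adjusted p = 0.943).

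**Figure D5:**
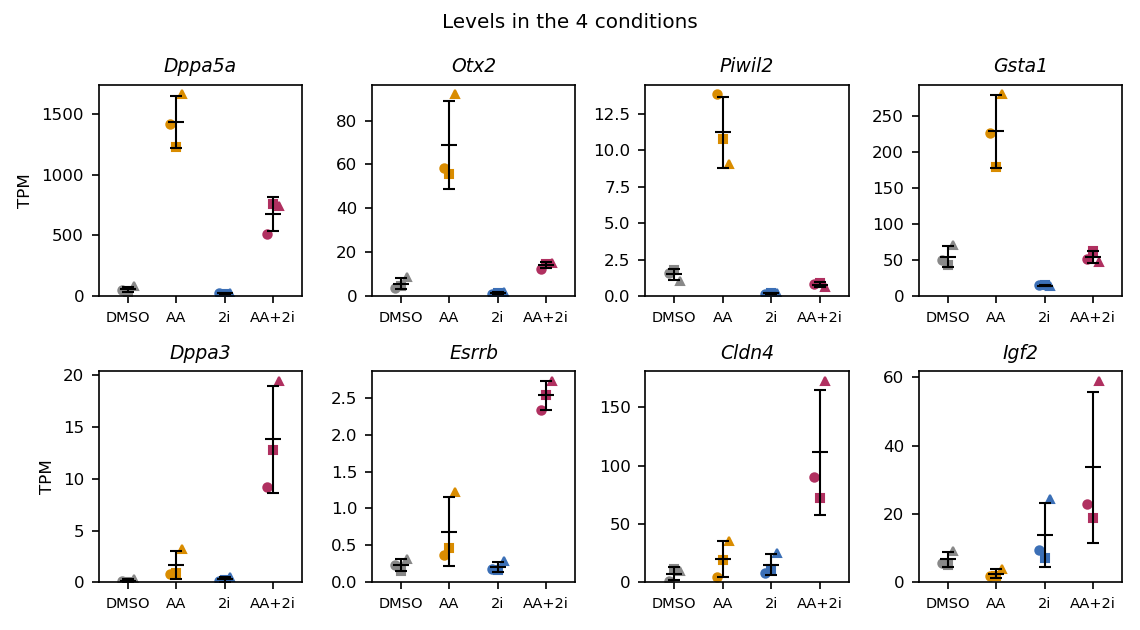
TPM (y axis, from 0) of 8 genes in the 4 conditions (x axis), with a marker for each library, shaped by replicate letter, and a bar for the mean with its SD over 3 libraries. Dppa5a, Otx2, Piwil2 and Gsta1 are highest with AA alone, at means from 11.2 to 1438 TPM, whereas Dppa3, Esrrb, Cldn4 and Igf2 are highest with AA+2i.

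The interaction, the response to AA with 2i less that without it, passed for 4 genes (0.0299% of those tested), all in the direction of a higher response with 2i, and for 0 genes in the other, where 180 genes had an unadjusted p below 0.05 in edgeR and DESeq2 called 10. Among them was Igf2, an imprinted growth factor, which fell with AA alone and rose with AA on top of 2i. It measured 5.82, 5.24 and 9.28 TPM with DMSO and 1.84, 1.77 and 4 TPM with AA, and 9.54, 7.29 and 24.51 TPM with 2i and 23.09, 18.83 and 58.98 TPM with AA+2i. AA+2i was the higher of the pair in each letter, although replicate C with 2i lay above A and B with AA+2i. The log2 fold changes were -1.45 without and 1.32 with 2i, and the interaction was 2.76 (edgeR adjusted p = 0.0178). Without the block the adjusted p was 1, and no interaction of any gene passed when replicate A, B or C was left out, with 687, 394 and 256 genes at an unadjusted p below 0.05 in edgeR. Gm7609 and LOC100504710 also passed.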

How the data were processed

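RNA was sequenced from pre-iPSCs after 48 h in 4 conditions with 3 replicates each. After trimming and quality filtering, the authors aligned the reads with Bowtie2 to RefSeq transcripts of mm9 and deposited, from RSEM 1.2.4, an expected count, a TPM and an FPKM for each gene. The expected counts that the authors deposited are not normalized and split reads shared by several genes. The deposited TPM were scaled to a fixed sum per library by the authors. The FPKM that the authors deposited served only to recompute 1 malformed TPM cell. RSEM was run without regard to strand, so reads of a gene and of an antisense partner cannot be told apart.

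Expected counts were rounded and fitted with the quasi-likelihood test of edgeR 4.0.16 (R 4.3.3) and RLE factors over all 12 libraries, with condition and replicate letter as terms, which left 6 residual degrees of freedom. Genes needed 10 counts in 3 libraries, which 13400 of 20325 had. Benjamini-Hochberg adjusted p-values below 0.05 passed. Standard errors were derived from the F statistic, as the size of the change over its root, and restate the test. The letters are not said to mark a shared culture. The deviations of the 2i and AA+2i libraries of a letter from their group means correlated at 0.27 in A, 0.067 in B and 0.81 in C, so the pairing is not established and the values without the block are given beside it. The GC-corrected fit took a loess curve (span 0.4) for each library as an offset, for 13286 genes. Named genes were the 12 largest rises and 12 largest falls that passed, moved alike in all letters and reached 1 TPM and 30 counts in the higher group, the list members that passed or whose role called for a value, and the genes with an interaction. The lists and the comparison were chosen with earlier results of these data known. Alternatives were no block, TMM factors, DESeq2 1.42.0, limma 3.58.1 on log2(TPM + 1), other count filters, a fit of the 2 groups alone, the GC correction with and without the block, and leaving out each letter. The tests were tried on simulated counts. No sample was left out. A further gene with an interaction is counted but not described.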

Additional observations from a re-analysis of the deposited data

Results flagged for a closer look

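In Igf2, Gm7609 and LOC100504710 the response to AA differed between cells with and without 2i by the test of the interaction. For Igf2 the difference was 2.76 on the log2 scale (edgeR adjusted p = 0.0178), and it rested on the replicate block, without which the adjusted p was 1.

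Gm7609 measured 9.61, 11.98 and 7.93 TPM with DMSO, 1.03, 0.9 and 0.99 TPM with AA, 0.95, 0.61 and 0.45 TPM with 2i and 1.26, 1.73 and 1.01 TPM with AA+2i. Its interaction was 4.28 (edgeR adjusted p = 0.00877, and 0.00571 without the block), and its own difference between AA+2i and 2i did not pass (adjusted p = 0.08). LOC100504710 measured 60.46, 111.61 and 94.6 TPM with DMSO, 31.82, 37.65 and 39.38 TPM with AA, 103.99, 107.58 and 122.19 TPM with 2i and 210.7, 200.71 and 253.15 TPM with AA+2i, an interaction of 2.25 (edgeR adjusted p = 0.0113, and 0.143 without the block). Both belong to gene models that may share reads with near copies. Leaving out any replicate letter left 0 genes with an interaction, with between 256 and 687 genes at an unadjusted p below 0.05 in edgeR.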

How the results depend on the processing

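The counts of raised and lowered genes, 400 and 206, were 102 and 20 with no replicate block, 877 and 650 with the GC correction and the block, 582 and 324 with DESeq2, 305 and 132 with limma, and 236 and 150 when 10 counts were needed in every library. The GC correction without the block, TMM factors, no count filter and a fit of only the 2 groups kept both counts within 1.5 times. Without 1 replicate letter they ranged from 0 to 117 and from 0 to 37, and the lowest values were those without C. The genes with a higher and a lower interaction, 4 and 0, were 2 and 0 with no replicate block, 22 and 3 with the GC correction and the block, 0 and 0 with the GC correction alone (643 genes at an unadjusted p below 0.05 in edgeR), 39 and 10 with DESeq2, 19 and 8 with limma, 2 and 0 with 10 counts in every library, and 0 and 0 without any 1 letter. The causes were not tested, except that leaving out a letter and a stricter filter leave fewer samples or genes. Of the 78 named genes that passed, 37 passed with no replicate block, 77 with the GC correction and the block, 64 with limma, and 47, 40 and 0 without A, B and C, and none of the 927 recomputed values changed sign. Of the 6 libraries with 2i or AA+2i, 3 correlated best with the library of their own letter in the other group.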

Other observations

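Some gene families outside the lists moved with AA on top of 2i. They were picked by symbol after their values were seen, so no test is attached to the families. Of 6 tested lipoxygenase genes, Alox12, Alox12e and Alox15 rose and none fell, and Alox12e went from means of 0.473 to 1.97 TPM. Of 7 CXC chemokines, Cxcl1, Cxcl5 and Cxcl16 rose and none fell, with Cxcl1 at 1.68, 2.19 and 3.48 TPM with 2i and 4.79, 7.24 and 13.67 TPM with AA+2i. Of 7 CC chemokines, Ccl2 and Ccl20 fell and none rose, and Ccl20 had 15, 24 and 36 counts with 2i and 0, 3 and 8 with AA+2i.

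Of 18 semaphorins, Sema3d, Sema3e and Sema6d fell and none rose, and Sema3e, the most abundant of the 3, measured 19.72, 13.22 and 14.09 TPM with 2i and 11.05, 9.2 and 6.59 TPM with AA+2i. Of 6 protocadherins outside the gene clusters, Pcdh9, Pcdh11x and Pcdh18 fell, and Pcdh18 went from a mean of 4.24 to 1.88 TPM. The aldo-keto reductases Akr1c13 and Akr1c18 rose 3.52-fold and 3.7-fold among 3 tested genes of their family. Of all these genes none passed without the replicate block except Alox15, which had an edgeR adjusted p of 0.00524.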
